A study of Mus musculus with 8 samples.

Results

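The genes described here are 31 that encode the autophagy machinery and the lysosome: 17 that build the autophagosome or bind its cargo, Tfeb, which encodes a transcriptional regulator of both compartments, and 13 that encode lysosomal enzymes, other lumen proteins and membrane proteins. They were picked by name and function, and the rule itself holds no measured value, though earlier results of these data were known when they were chosen. All 31 were found among the 15359 genes of the deposited table and all 31 passed the filter on low counts. Messenger RNA had been sequenced from the ventral mesencephalic area, the part of the midbrain that holds the dopaminergic neurons. Of the samples, 4 came from Ercc1 delta/+ animals, heterozygous for a mutant form of the DNA repair gene Ercc1, and 4 from wild type mice, and both genotypes had the same mixed FVB:C57BL/6J background and a regular diet. The sources used here give neither age nor sex. No label ties a sample to its own animal, so p-values below reflect only how far these samples scatter, and part of that scatter may be technical.

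Autophagy wraps cytoplasm in a double membrane, the autophagosome, and hands it to the lysosome for digestion. A kinase complex starts the process, a lipid kinase complex marks the membrane, and a pair of ubiquitin-like conjugation reactions then fixes proteins of the LC3 and GABARAP family to it, where cargo receptors dock. In neurons autophagosomes form far out in the axon and travel to the cell body, and inherited loss of several lysosomal proteins causes neurodegeneration.

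Libraries held 18303913 to 27197581 counts in Ercc1 delta/+ and 20558308 to 31261889 counts in wild type. A member's count in a library ran from 260 (Tfeb) to 35303 (Gaa), so relative counting error was largest for low members such as Tfeb and Atg5. Its part in their spread was not tested. Ercc1 itself stood at 11.5 ± 1.17 CPM (counts relative to the TMM-scaled library total) in Ercc1 delta/+ and 14.5 ± 0.723 CPM in the wild type libraries (SD, n = 4 for both), and no library crossed to the other group's range. The edgeR quasi-likelihood fit gave a log2 fold change of -0.34 (SE 0.10) and an adjusted p of 0.113, above the threshold of 0.05. The markers of dopaminergic neurons Th, Slc6a3, Slc18a2, Ddc and Nr4a2 were present at mean levels from 26.8 to 78.5 CPM in both groups. Pitx3 and Foxa2 were near 1 CPM and En1 at 5.61 CPM in Ercc1 delta/+ and 5.03 CPM in wild type, and 0 of the 8 dopaminergic markers were at 0 in any library. Of these 8 markers, 2 had positive and 6 negative log2 fold changes, with a median of -0.11 and 0 past the test. Their summed level ran from 168 to 335 CPM in Ercc1 delta/+ and from 230 to 377 CPM in wild type. All 8 choroid plexus markers had positive log2 fold changes, with 0 past the test. Their summed level was 361, 476, 1140 and 76.4 CPM in Ercc1 delta/+ replicates 1 to 4 and 155, 132, 123 and 64.0 CPM in wild type, so that 3 mutant libraries lay above the wild type range and the other inside it. The part of this tissue in the results below was not tested. In such bulk tissue, fewer cells of a type and less RNA per cell cannot be told apart.

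The comparison of the genotypes asked which transcripts of the pathway differ in mice heterozygous for the repair gene mutation. For the autophagy and lysosome genes the answer was that no difference passed the test. By the edgeR quasi-likelihood test with Benjamini-Hochberg adjustment over all 15074 genes tested, 0 of the 31 members had an adjusted p under 0.05, and the smallest was 0.143, for Atg5. Over all genes, 7 passed, or 0.0464% (0.0133% higher and 0.0332% lower). With 1 library left out that count ran from 0 to 310, the highest without Ercc1 delta/+ replicate 2, and the count of members was 0 each time. At an unadjusted p under 0.05, 2 members were higher and 3 lower, together 16.1% of the 31, against 18.7% of all genes tested (9.08% higher and 9.65% lower). In 2 members the groups did not overlap, Ulk1 on the higher and Atg5 on the lower side. They are 6.45% of the 31, against 12.1% of all genes tested (5.17% higher and 6.88% lower). DESeq2, the edgeR exact test and limma-voom also called 0 members, with smallest adjusted p-values of 0.0862, 0.186 and 0.143, where these tests called 7.57%, 3.69% and 0.345% of all genes with an adjusted p. They put 5, 3 and 5 members at an unadjusted p under 0.05, against 19.4%, 16.4% and 19.1% of all genes. These genes have 35 rows in the authors' deposited table, of which 0 had an adjusted p under 0.05, and the smallest was 0.439, where 1.86% of all rows passed.

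Intervals from this fit also show how large a difference these samples allow, without the length and GC offset described below. For Ulk1 the 95% interval, 0.02 to 0.29, did not hold the estimate with that offset, 0.0071. Of the 31 members, all 31 had a 95% confidence interval of the log2 fold change that lay inside -0.5 to 0.5, that is within 1.41-fold in either direction, as 60.8% of all genes tested did. The widest intervals reached -0.44 for Optn and 0.38 for Atg9a. The median standard error of the members was 0.08 on the log2 scale, against 0.11 over all genes tested. Estimated log2 fold changes ran from -0.25 (Atg5) to 0.19 (Atg9a). Their median was -0.04 for the 17 autophagosome genes and -0.01 for the 13 lysosomal genes, and it was -0.00 over all genes tested.

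**Figure D1:**
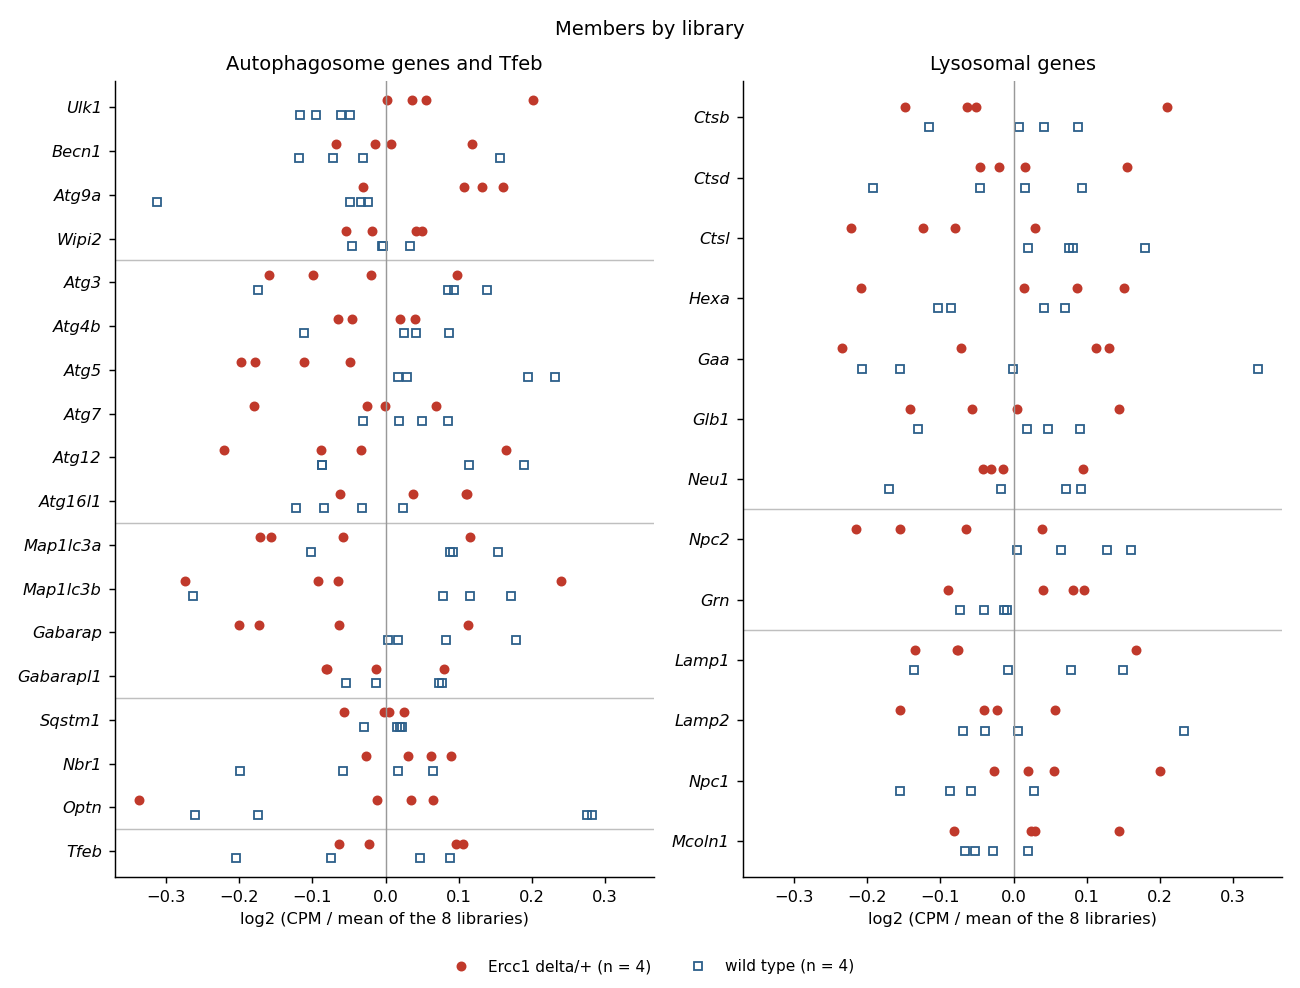
Each point is 1 library, plotted as the log2 ratio of its CPM to the mean of the 8 libraries. Filled circles are Ercc1 delta/+ and open squares wild type, genes are listed by role, and lines part the roles. The groups overlap in all members other than Ulk1 and Atg5.

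**Figure D2:**
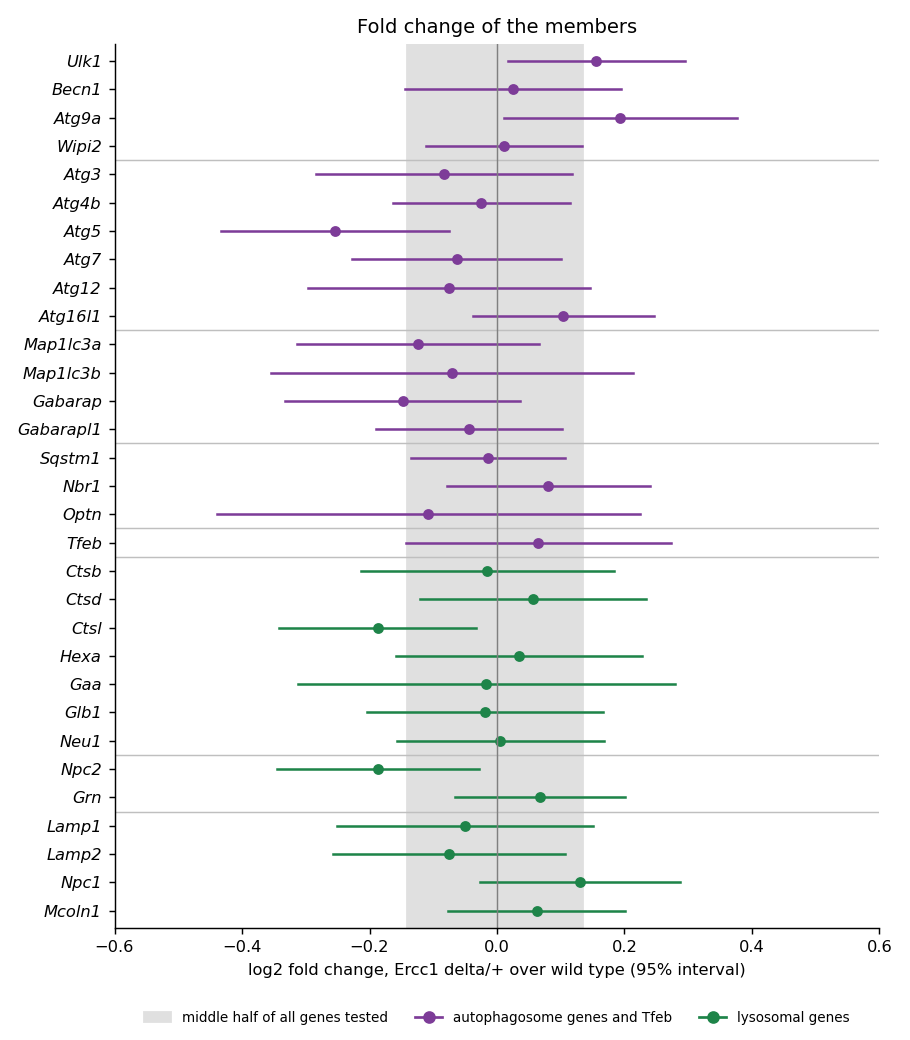
Points are log2 fold changes of Ercc1 delta/+ over wild type from the edgeR quasi-likelihood fit and bars are their 95% confidence intervals. The grey band spans the 25th to 75th percentile of all 15074 genes tested, from -0.14 to 0.14. All 31 intervals lie inside -0.5 to 0.5.

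Among the genes that start the autophagosome, all 4 had a positive log2 fold change. Of these, 2 had an unadjusted p under 0.05, as 18.7% of all genes did. Wipi2 turned negative in 6 of 20 alternatives, among them upper-quartile scaling (-0.0119) and the length and GC offset (-0.0848). Becn1 turned negative in 3 of the 20, among them library total as a covariate (-0.0322). Ulk1 encodes the kinase that receives nutrient signals and sets the process going. It held 136, 150.2, 131 and 134 CPM in Ercc1 delta/+ replicates 1 to 4, against 125, 122, 126 and 120.4 CPM in wild type. Every mutant library was above every wild type library, by a small margin, and the log2 fold change of 0.16 (SE 0.06, adjusted p = 0.220) did not pass the edgeR test. With the length and GC offset it was 0.0071. Atg9a encodes the membrane protein of the vesicles that seed the autophagosome. Its levels were 186, 189, 166 and 182 CPM in Ercc1 delta/+ and 167, 166, 164 and 136 CPM in wild type. Mutant replicate 3 lay among the wild type libraries and wild type replicate 4 far below the rest, and the log2 fold change was 0.19 (SE 0.08, adjusted p = 0.244, edgeR). Becn1, a subunit of the lipid kinase complex, stood at 100.5 ± 5.53 CPM in Ercc1 delta/+ and 98.8 ± 8.47 CPM in wild type, with a log2 fold change of 0.03. Wipi2, which binds the lipid that complex makes and recruits the conjugation machinery, stood at 138 ± 4.76 CPM in Ercc1 delta/+ and 137 ± 3.07 CPM in wild type (SD over 4 libraries), a log2 fold change of 0.01.

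The conjugation genes had 1 positive and 5 negative log2 fold changes. That of Atg3 turned positive with the length and GC offset (0.0355), and that of Atg4b without wild type replicate 1 (0.0009). Atg5, whose product is joined to Atg12 to form the ligase for LC3, held 21.6, 20.7, 19.8 and 19.5 CPM in Ercc1 delta/+ and 25.6, 26.3, 22.8 and 22.6 CPM in wild type. All 4 mutant libraries were below all 4 wild type libraries. This was the member with the smallest p, a log2 fold change of -0.25 with an SE of 0.08 (adjusted p = 0.143, edgeR). Atg16l1, the third part of that ligase, held 60.8, 54.0, 57.9 and 60.9 CPM in Ercc1 delta/+ and 53.2, 57.3, 55.2 and 51.8 CPM in wild type. Mutant replicate 2 lay inside the wild type range, and the log2 fold change was 0.10 (SE 0.06). Atg12 had a log2 fold change of -0.07, Atg7, the activating enzyme of both reactions, -0.06, Atg3, the enzyme that passes LC3 to the lipid, -0.08, and Atg4b, the protease that trims LC3 and later frees it, -0.02. Their groups overlapped. The partners of the ligase thus had estimates of both signs, and the difference between them was not tested.

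The LC3 and GABARAP members, the proteins that coat the autophagosome, had 4 negative log2 fold changes out of 4, and 0 at an unadjusted p under 0.05. Gabarapl1 was at 0.0011 under the length and GC offset, and Map1lc3b at 0.0008 without Ercc1 delta/+ replicate 3. Map1lc3a held 109, 131, 108 and 116 CPM in Ercc1 delta/+ and 135, 129, 129 and 113 CPM in wild type. Map1lc3b, the form most used as a marker of autophagosomes, held 180.0, 227, 159 and 183 CPM in Ercc1 delta/+ and 203, 216, 208 and 159.9 CPM in wild type. Gabarap held 103, 128, 105 and 114 CPM in Ercc1 delta/+ and 119, 134, 126 and 120.03 CPM in wild type. In all 3 genes mutant replicate 2 was the highest mutant library. It stood among the wild type values in Map1lc3a and Gabarap and above them all in Map1lc3b. The log2 fold changes were -0.12 (SE 0.08) for Map1lc3a, -0.07 (SE 0.13) for Map1lc3b and -0.15 (SE 0.08) for Gabarap, and -0.04 (SE 0.07) for Gabarapl1.

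The family was not expressed evenly. Per transcript length, Gabarapl1 had the highest level of all 31 members, 307 ± 16.4 CPM per kilobase in Ercc1 delta/+ and 317 ± 14.1 CPM per kilobase in wild type (SD, n = 4 each). Among the 5 family genes measured, it made up 50.4% ± 1.32 of the summed level per kilobase in Ercc1 delta/+ and 48.1% ± 1.05 in wild type. Map1lc3a made up 17.1% and 17.2%, Gabarap 13.6% and 14.0%, and Map1lc3b 12.1% and 11.7%, with the mutant share first. The fifth gene, Gabarapl2, is not among the 31 but came from a list of 133 other pathway genes. It held 58.7, 80.6, 73.1 and 68.0 CPM in Ercc1 delta/+ and 107, 95.7, 97.4 and 96.6 CPM in wild type. The groups did not overlap. Its log2 fold change of -0.50 (SE 0.09) missed the threshold (adjusted p = 0.0610, edgeR), and its share of the family was 6.84% ± 0.632 in Ercc1 delta/+ and 8.97% ± 0.627 in wild type (SD, n = 4 each). With the DESeq2 test, which called 7.57% of all genes, the adjusted p was 0.000376. With the correction for length and GC content described below, the log2 fold change was -0.35 (adjusted p = 0.224, edgeR).

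Cargo receptors tie ubiquitin-marked proteins and organelles to the LC3 coat. Sqstm1, which encodes p62, held 480.1, 499, 501 and 508 CPM in Ercc1 delta/+ and 507, 507, 489 and 505 CPM in wild type. This was among the steadiest members, with a coefficient of variation of 2.41% in Ercc1 delta/+ and 1.69% in wild type, and its log2 fold change was -0.01 (SE 0.05), with a 95% interval from -0.14 to 0.11. Nbr1, a receptor with the same domain plan, held 220.2, 224, 207 and 216 CPM in Ercc1 delta/+ and 213, 221, 203 and 184 CPM in wild type, a log2 fold change of 0.08 (SE 0.07). Optn, a receptor for damaged mitochondria that is mutated in familial amyotrophic lateral sclerosis, varied most. It held 21.7, 27.2, 28.7 and 28.1 CPM in Ercc1 delta/+ and 24.3, 22.9, 33.2 and 33.3 CPM in wild type. The wild type libraries fell into a lower and a higher pair with the mutants between or below them, and the log2 fold change was -0.11 (SE 0.15).

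Tfeb encodes the transcription factor that enters the nucleus in starvation and switches on lysosomal and autophagy genes. It had the lowest level per kilobase of the 31 members, 6.52 ± 0.384 CPM per kilobase in Ercc1 delta/+ and 6.24 ± 0.560 CPM per kilobase in wild type (SD, n = 4 each). Its libraries held 14.3, 14.7, 16.0 and 16.1 CPM in Ercc1 delta/+ and 14.2, 15.4, 15.9 and 13.0 CPM in wild type, and the groups overlapped. The log2 fold change was 0.06 (SE 0.09, adjusted p = 0.745, edgeR). Its messenger RNA level does not report where the protein is in the cell.

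TFEB binds a palindrome known as the CLEAR motif, whose centre is the E-box CACGTG. RefSeq promoter windows on build GRCm38.p6, from 250 bases before to 50 after a gene's start, were at hand for 25 of the 31 members. The full motif searched is TCACGTGA with a G before and a C after it. It reads the same on both strands, as do its parts. Windows of 0 of the 25 members held it, against 0.654% of the 11935 genes of the table that have a window. Counted by window, it was in 0.326% of all 32851. The inner 8 letters, TCACGTGA, were in windows of 3 members, Ctsd, Mcoln1 and Atg3, and in 1.94% of the 11935 genes of the table that have a window. The E-box alone, which the longer motifs contain, was in 9 of the 25 members, against 11.1% of those genes. Among members with a window it was in 6 of 11 lysosomal and 3 of 13 autophagosome genes. Among the other pathway genes with a window it was in 10 of 45 lysosomal and 6 of 40 autophagosome genes. These are matches of letters and not shown binding sites, and the table tests no effect of them. The stretches of Ctsd (chr7:142387909-142387936, minus strand), Mcoln1 (chr8:3500438-3500490, plus strand) and Atg3 (chr16:45158725-45158774, plus strand) are shown because they hold the longest match, and that of Lamp1 (chr8:13159090-13159160, plus strand) because it holds 4 E-boxes within 71 bases of the start. All run 5′ to 3′ on the gene's strand, and capitals mark the E-box or the 8-letter match.
Ctsd: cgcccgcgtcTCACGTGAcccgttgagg
Mcoln1: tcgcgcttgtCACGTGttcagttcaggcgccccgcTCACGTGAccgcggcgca
Atg3: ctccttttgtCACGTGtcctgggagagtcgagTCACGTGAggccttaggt
Lamp1: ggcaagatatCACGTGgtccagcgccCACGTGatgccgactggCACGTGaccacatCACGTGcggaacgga
The log2 fold changes of these 4 genes were 0.06 for Ctsd, 0.06 for Mcoln1, -0.08 for Atg3 and -0.05 for Lamp1, each with groups that overlapped.

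The lysosomal hydrolases digest what arrives. Of the 7 measured, 3 were positive and 4 negative, with a median log2 fold change of -0.01, and 0 passed the test. Ctsd, an aspartic protease that digests alpha-synuclein, held 404, 445, 387 and 394 CPM in Ercc1 delta/+ and 387, 427, 404 and 350.0 CPM in wild type, and the log2 fold change was 0.06 (SE 0.08). The cysteine protease gene Ctsb stood at 608 ± 67.7 CPM in Ercc1 delta/+ and 614 ± 36.4 CPM in wild type (SD, n = 4 libraries each). Ctsl, another cysteine protease gene, held 73.0, 86.9, 80.6 and 78.2 CPM in Ercc1 delta/+ and 89.8, 90.1, 86.4 and 96.5 CPM in wild type. Mutant replicate 2 just entered the wild type range. Its log2 fold change was -0.19 (SE 0.07) and missed the threshold (adjusted p = 0.195, edgeR).

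The other hydrolases are enzymes whose loss causes storage disease. Hexa, which encodes a subunit of the enzyme missing in Tay-Sachs disease, had a log2 fold change of 0.03, the beta-galactosidase gene Glb1 -0.02 and the sialidase gene Neu1 0.01. Gaa, the acid alpha-glucosidase gene of Pompe disease, was the most abundant member in CPM and differed widely between libraries. It held 811, 724, 933 and 921 CPM in Ercc1 delta/+ and 852, 738, 765 and 1074 CPM in wild type. The lowest library of each group was replicate 2, and the highest of all was wild type replicate 4, while the log2 fold change was -0.02 (SE 0.13).

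The genes of both other lumen proteins had estimates of opposite sign. Npc2, which hands cholesterol to Npc1 for export, held 63.5, 75.8, 70.5 and 66.2 CPM in Ercc1 delta/+ and 77.1, 80.6, 82.4 and 74.0 CPM in wild type. Mutant replicate 2 alone reached into the wild type range, and the log2 fold change of -0.19 (SE 0.07, adjusted p = 0.206, edgeR) did not pass. Grn, the progranulin gene of frontotemporal dementia, held 64.6, 56.8, 63.9 and 62.1 CPM in Ercc1 delta/+ and 58.8, 60.03, 59.9 and 57.4 CPM in wild type. Its log2 fold change was 0.07 (SE 0.06), with 1 mutant library below all wild type libraries and 3 above them.

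Of the membrane proteins 2 were positive and 2 negative. Npc1, the cholesterol exporter that works with Npc2, held 114, 133, 121 and 118 CPM in Ercc1 delta/+ and 112, 109, 118 and 104 CPM in wild type, a log2 fold change of 0.13 with an SE of 0.07 (adjusted p = 0.344, edgeR). Npc1 and Npc2 thus had estimates of opposite sign, and that difference was not tested. Mcoln1, the calcium channel through which lysosomes activate Tfeb, held 59.2, 69.2, 63.7 and 63.9 CPM in Ercc1 delta/+ and 61.4, 59.8, 63.5 and 60.4 CPM in wild type, a log2 fold change of 0.06 (SE 0.06). Lamp1, the most abundant glycoprotein of the lysosomal membrane, held 397, 469.8, 381 and 397 CPM in Ercc1 delta/+ and 416, 464, 442 and 381 CPM in wild type, a log2 fold change of -0.05 (SE 0.09). Its groups overlapped over nearly their whole range.

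Lamp2 gives rise to splice forms with different tails, of which a single form is the receptor for chaperone-mediated autophagy. Its main row, NM_010685, held 79.4, 75.2, 74.3 and 68.6 CPM in Ercc1 delta/+ and 74.3, 89.8, 76.7 and 72.8 CPM in wild type, a log2 fold change of -0.08 (SE 0.08). The table has another row for the gene, NM_001017959, which took 38.9%, 41.9%, 40.5% and 41.0% of the counts of both rows in Ercc1 delta/+ and 38.8%, 39.1%, 42.2% and 39.1% in wild type. The ranges overlapped, so no shift between the rows was seen. Both rows share most exons, so these shares are not shares of molecules, and the files do not say which row is which form. Fitted with every row on its own, NM_001017959 had a log2 fold change of -0.04 (SE 0.09). Gaa has 2 rows and Tfeb 3, with counts nearly the same within each gene.

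Per transcript length the members spanned a wide range, and the order was alike in both genotypes. In wild type, Gabarapl1 was followed by Sqstm1 (246 ± 4.18 CPM per kilobase), Gaa (236 ± 42.0), Lamp1 (191 ± 16.1), Ctsd (184 ± 15.2), Ctsb (129 ± 7.67) and Map1lc3a (114 ± 8.46; SD, n = 4 for each). Sqstm1 and Gaa, and Lamp1 and Ctsd, differed from each other by less than their spread. At the low end, Atg5 stood at 8.67 ± 0.410 CPM per kilobase in Ercc1 delta/+ and 10.3 ± 0.792 in wild type, and Atg7 at 7.11 ± 0.506 and 7.43 ± 0.254. The 6 conjugation genes, Atg12 among them, all lay in the lower part of the order, and the LC3 and GABARAP genes near the top. The lengths are those of the matching GENCODE M21 transcripts, which may differ from the gene models the authors counted over, and the exons of 14 of the 31 members overlap those of another gene, 11 of them a coding gene.

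**Figure D3:**
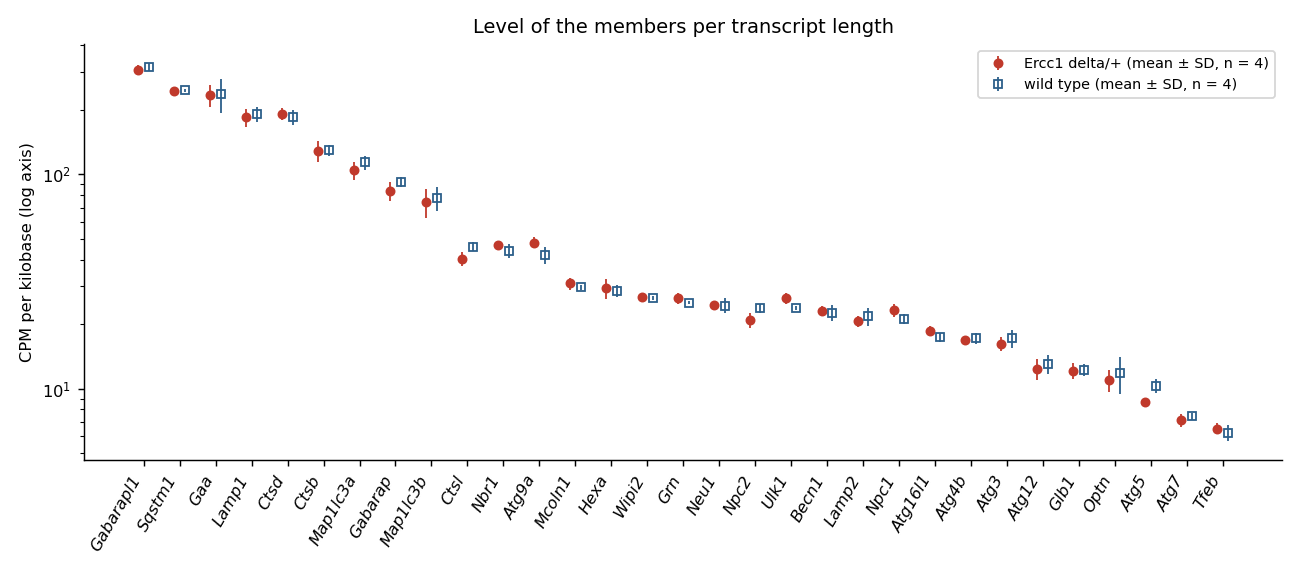
Mean CPM per kilobase of transcript (log axis) of each member, with SD, in Ercc1 delta/+ (filled circles) and wild type (open squares), n = 4 each, in the order of the wild type level. Gabarapl1 is highest and Tfeb lowest in both genotypes.

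Libraries of the same genotype differed from each other too, and this spread was not tested against the difference between the genotypes. Among the mutants, replicate 2 had the highest value in 19 of the 31 members and replicate 3 the lowest in 15. Among the wild type libraries, replicate 4 had the lowest value in 21 members and replicate 2 the highest in 14. Mean centred log2 CPM of the LC3 and GABARAP members was -0.13, 0.14, -0.17 and -0.04 in Ercc1 delta/+ replicates 1 to 4, and 0.06, 0.13, 0.10 and -0.09 in wild type. For the 13 lysosomal genes it was -0.04, 0.07, -0.03 and -0.03 in Ercc1 delta/+ and 0.01, 0.03, 0.03 and -0.03 in wild type. Neuron markers had their highest sum in mutant replicate 2 (7402 CPM) and their lowest in wild type replicate 4 (5409 CPM). Wild type replicate 4 also had the lowest sum of microglia (289 CPM), astrocyte (3497 CPM), oligodendrocyte (5798 CPM), endothelial (218 CPM) and choroid plexus (64.0 CPM) markers. Its sum of dopaminergic markers (255 CPM) was not the lowest. Mutant replicate 2 and wild type replicate 4 are also the shallowest and the deepest library. The part of cell types or of depth in these levels was not tested.

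Microglia, which are rich in lysosomes, could carry part of the lysosomal RNA. Their 14 markers, all detected in every library, summed to between 342 and 413 CPM in Ercc1 delta/+ and between 289 and 427 CPM in wild type. The groups overlapped, 8 markers were positive and 6 negative, and 0 passed the test. Endothelial marker sums ran from 237 to 325 CPM in Ercc1 delta/+ and from 218 to 247 CPM in wild type, with 4 of 6 markers positive, a median log2 fold change of 0.23 and 0 past the test. Astrocyte marker sums ran from 3545 to 5435 CPM in Ercc1 delta/+ and from 3497 to 5429 CPM in wild type, and oligodendrocyte sums from 6412 to 9761 CPM and from 5798 to 10551 CPM in the same order. Positive log2 fold changes were seen in 3 of 9 astrocyte, 2 of 8 oligodendrocyte and 6 of 8 neuron markers, with 0 past the test in each set.

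The other genes of the pathway, 133 in number and taken from a list written by role, were alike in having 0 past the threshold. There were 66 positive and 67 negative log2 fold changes, and 12 were higher and 14 lower at an unadjusted p under 0.05, 19.5% of the list against 18.7% of all genes tested. DESeq2 called 11 of them, 8.33% of those with an adjusted p against 7.57% of all genes, the edgeR exact test 2, 1.5% against 3.69%, and limma-voom 0, against 0.345%. In the 48 autophagosome genes of the list the smallest p-values in the lower direction were those of Fundc1, Gabarapl2 and Bnip3. Fundc1, a mitochondrial outer membrane protein that binds LC3 in mitophagy, held 40.9, 42.6, 44.7 and 40.7 CPM in Ercc1 delta/+ and 60.1, 53.6, 55.6 and 52.2 CPM in wild type. The groups were well apart, and the log2 fold change of -0.39 (SE 0.07) missed the threshold by a small margin (adjusted p = 0.0507, edgeR). Bnip3, another mitophagy receptor gene, had a log2 fold change of -0.30 with an SE of 0.10 (adjusted p = 0.149, edgeR). Fundc1 passed by edgeR with upper-quartile scaling (adjusted p = 0.0459) and with the stricter filter (0.0491), as well as with DESeq2 and the edgeR exact test. Without Ercc1 delta/+ replicate 2, Gabarapl2, Bnip3, Fundc1 and the regulator gene Lamtor5 passed, with adjusted p-values of 0.0466 to 0.0469 by edgeR. Over all genes, 77 of 15074 passed with upper-quartile scaling, 50 of 14270 with the stricter filter and 310 of 15164 without that library. With the length and GC offset the log2 fold change was -0.18 for Fundc1 (adjusted p = 0.356, edgeR) and -0.11 for Bnip3 (adjusted p = 0.677).

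Wdfy3, Rubcn and Plekhm1 had the smallest p-values among those of the 48 that were higher. Wdfy3, a large scaffold that brings protein aggregates to the autophagosome, held 372, 357, 356 and 343 CPM in Ercc1 delta/+ and 297, 251, 281 and 319 CPM in wild type, a log2 fold change of 0.31 (SE 0.08) with an adjusted p of 0.0930 by edgeR. Rubcn, an inhibitor of the lipid kinase complex, had a value of 0.21 (SE 0.06), and Plekhm1, an adaptor for fusion with the lysosome, 0.21 (SE 0.06). In these 3 genes every mutant library was above every wild type library. With the length and GC offset the log2 fold changes were 0.07 for Wdfy3, 0.10 for Rubcn and 0.06 for Plekhm1, with adjusted p-values of 0.666, 0.539 and 0.722 by edgeR. Of the 57 other lysosomal genes, 1 was higher and 5 lower at an unadjusted p under 0.05, 10.5% against 18.7% of all genes tested. Laptm4a, a small membrane protein of late endosomes and lysosomes, held 179, 200.4, 187 and 176 CPM in Ercc1 delta/+ and 218, 222, 215 and 222 CPM in wild type, a log2 fold change of -0.24 with an SE of 0.06 (adjusted p = 0.0930, edgeR). The tetraspanin gene Cd63 had a value of -0.30 (SE 0.08) and the protease gene Ctso -0.31 (SE 0.10), while the amino acid transporter gene Slc36a1 had 0.19 (SE 0.08), the transporter gene Abca2 0.21 (SE 0.10) and the protease gene Ctsc 0.25 (SE 0.13). Under the length and GC offset these values were -0.15 for Laptm4a, -0.16 for Cd63, -0.22 for Ctso, 0.08 for Slc36a1, -0.0017 for Abca2 and 0.35 for Ctsc.

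**Figure D4:**
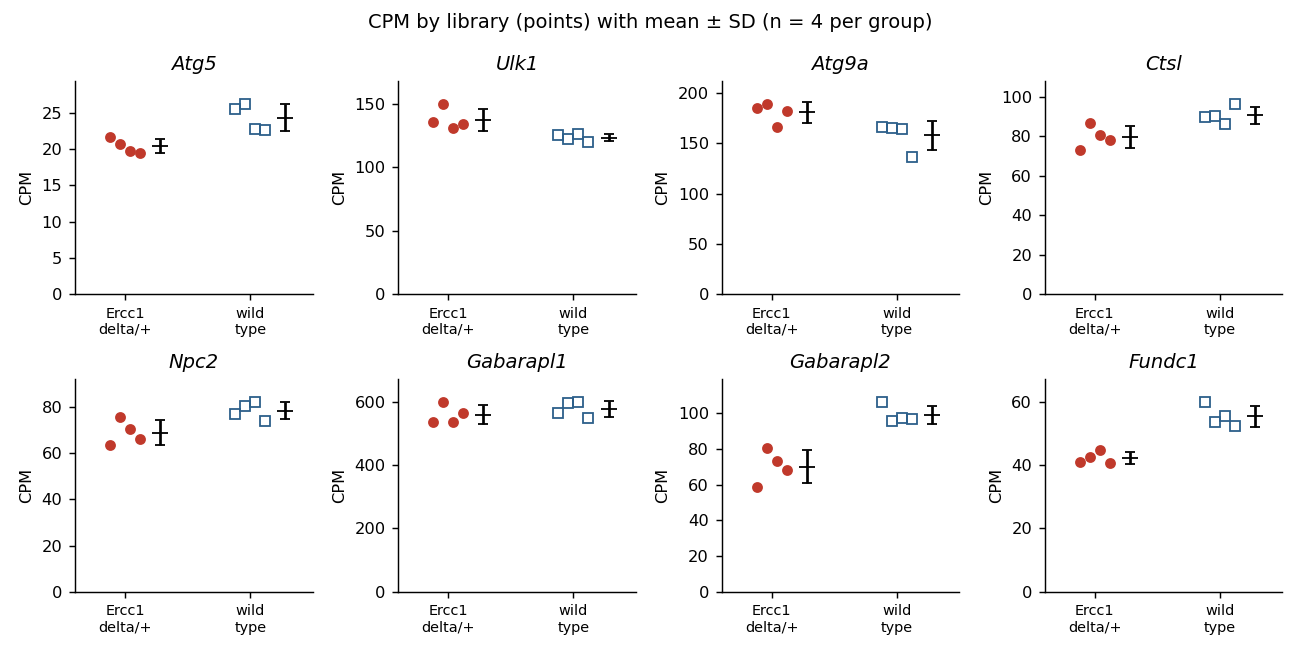
CPM of 8 genes in each library, Ercc1 delta/+ at the left (filled circles) and wild type at the right (open squares), with mean and SD (n = 4 each). Atg5, Ulk1, Gabarapl2 and Fundc1 show groups that do not overlap, and Gabarapl1 shows groups that do.

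The kinase mTORC1 sits on the lysosome, where amino acids recruit it through the Rag and Ragulator proteins and Rheb switches it on, and it restrains both Ulk1 and Tfeb. Of the 19 regulator genes on the list, 4 were higher and 3 lower at an unadjusted p under 0.05, 36.8% against 18.7% of all genes tested, and 0 passed the adjusted test. With the length and GC offset described below, 3 of the 19 had an unadjusted p under 0.05, 15.8% against 11.1% of all genes tested. These 3 were Mitf, Rheb and Rraga. The genes named here from the list were chosen after their values were seen. Rheb held 85.1, 83.5, 80.6 and 77.5 CPM in Ercc1 delta/+ and 98.9, 99.3, 95.6 and 93.9 CPM in wild type, a log2 fold change of -0.25 with an SE of 0.06 (adjusted p = 0.0797, edgeR). Rraga, which encodes a Rag protein, had a value of -0.22 (SE 0.05), and the 5 Ragulator genes Lamtor1 to Lamtor5 had values of -0.16, -0.20, -0.13, -0.13 and -0.35. Mtor, which encodes the kinase, had a value of 0.21 (SE 0.06), its partner Rptor 0.17 (SE 0.05) and its inhibitor Tsc2 0.18 (SE 0.06), while their partners Mlst8 and Tsc1 had 0.01 and 0.06 and the Rag gene Rragc -0.08. Mtor held 179, 181, 182 and 168 CPM in Ercc1 delta/+ and 155, 148, 154 and 158 CPM in wild type. In Rheb, Rraga, Mtor, Rptor and Tsc2 the groups did not overlap, as in 7 of the 19 regulators (36.8%) and 12.1% of all genes tested. The DESeq2 test, which called 7.57% of all genes, called these 5, with adjusted p-values from 0.00294 for Rraga to 0.0280 for Rptor.

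The sign of these values went with transcript length. Rheb, Rraga and the Ragulator transcripts are between 668 and 1784 bases long, and those of Mtor, Rptor and Tsc2 between 6266 and 8564. Spearman's correlation of log2 fold change with length was 0.395 over the 14711 genes of known length and 0.382 over the 31 members, as a description across genes that share the same 8 libraries. An offset that removes the trend over length and GC content in each library, on which the fit was run again, lowered these values to 0.077 and -0.064. With it the log2 fold changes were 0.02 for Mtor, -0.00 for Rptor, 0.03 for Tsc2, -0.14 for Rheb and -0.12 for Rraga, and they were -0.04, 0.03, 0.07, 0.04 and -0.14 for Lamtor1 to Lamtor5. Other regulator values grew with the offset. That of Mitf (4881 bases), whose groups did not overlap, went from 0.31 to 0.34 (adjusted p = 0.419, edgeR). That of Zkscan3 (2600 bases) went from 0.11 to 0.15. For the members with the smallest p-values the log2 fold changes with the offset were -0.15 (SE 0.07) for Atg5, 0.01 (SE 0.06) for Ulk1, 0.09 (SE 0.07) for Atg9a, -0.06 (SE 0.06) for Ctsl and -0.21 (SE 0.07) for Npc2. With the offset 1 member, Npc2, kept an unadjusted p under 0.05, 3.23% of the 31 against 11.1% of all genes, and its adjusted p was 0.313 by the edgeR test.

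**Figure D5:**
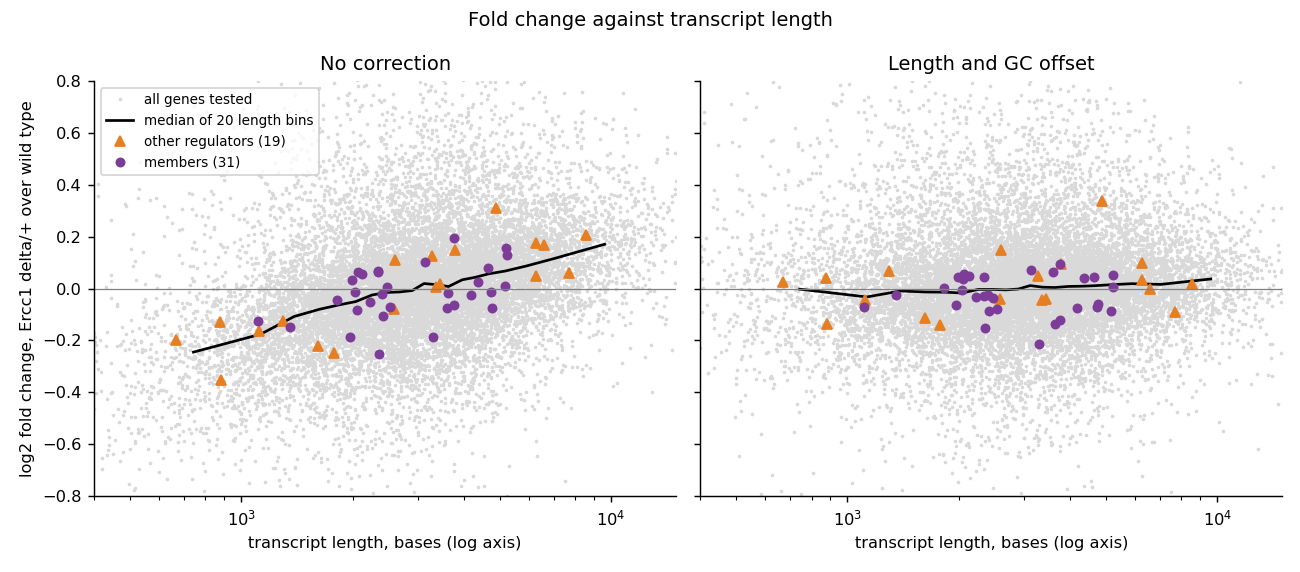
Log2 fold change of Ercc1 delta/+ over wild type against transcript length (log axis), without correction at the left and with the length and GC offset at the right. Grey dots are all genes tested, the line joins medians of 20 length bins, circles are the 31 members and triangles the 19 other regulators. The upward slope at the left (Spearman correlation 0.395) is nearly gone at the right (0.077), because the offset was fitted to these libraries to remove it.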

How the data were processed

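RNA of 8 ventral midbrain samples was sequenced as poly(A)-selected TruSeq libraries that shared a lane, per the labels' protocols. Per the submitters' processing notes the authors used TopHat 1.3.1 and edgeR on mm9. How reads were counted, and whether strand and multiply placed reads were handled, is not given in the sources used here. The authors deposited raw counts for 19931 RefSeq transcripts, with their own log2 fold changes, p-values and adjusted p-values (lowest row total 31 counts).

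Rows were named through RefSeq (GRCm38.p6) and GENCODE M21 tables (19456 matched, 475 kept by identifier). The row of highest total stood for a gene, 152 genes with counts identical to another were merged, and 15359 remained, 97.53% with a length. Libraries of a group differed beyond sampling noise (lowest chi-square over degrees of freedom 11.7). The test was the edgeR 4.0.16 quasi-likelihood test (R 4.3.3; TMM, filterByExpr, Benjamini-Hochberg over all genes, threshold 0.05, two-sided). CPM are TMM-scaled, with a prior count of 2 in log2 CPM for library means. Standard errors are the estimate divided by the root of F, and intervals are 95%. At these depths 3 counts are 0.0913 to 0.170 CPM (counting error only). The offset was a lowess per library over length and then GC (span 0.3, genes with mean log2 CPM above 2). The script was tested on simulated data.

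Members and lists were chosen with earlier results of these data known, so no p is adjusted over a list alone and no list is tested. Values in every library are given for Map1lc3a, Map1lc3b, Sqstm1, Tfeb, Lamp1, Lamp2, Ctsd, Npc1 and the 2 members of each role with the smallest p, and some others. Of other pathway genes, the 3 per direction with the smallest p in the autophagosome and in the lysosomal lists are named. Alternatives tried were scaling by RLE or by upper quartile, a stricter filter (1 CPM in 4 libraries) or none, DESeq2 1.42.0, the edgeR exact test, limma-voom (limma 3.58.1), robust=TRUE, the replicate block, every transcript row, the offset, library total as a covariate, and leaving out each library.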

Additional observations from a re-analysis of the deposited data

Results flagged for a closer look

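In 2 members a single library stood apart from the other 3 of its group by Dixon's criterion at the 95% level, which chance meets in about 1 of 20 groups, and 62 groups were looked at. Wild type replicate 4 held 136 CPM of Atg9a, where the other wild type libraries held 164 to 167 CPM. Without it the log2 fold change of Atg9a was 0.13 (adjusted p = 0.339, edgeR). Wild type replicate 3 held 489 CPM of Sqstm1, where the others held 505 to 507 CPM, a gap of a few percent in a group of very small spread.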

How the results depend on the processing

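In all 20 alternatives, 0 of the 31 members passed the threshold, and the medians of the autophagosome and the lysosomal members moved by less than the spread between libraries. The count over all genes, 7 as reported, was far less stable: 33 with RLE scaling, 77 with upper-quartile scaling, 50 with the stricter filter, 1052 with DESeq2, 556 with the edgeR exact test, 52 with limma-voom, 1 with the length and GC offset and 4 with every transcript row on its own. Leaving out 1 library gave 0 (without Ercc1 delta/+ replicate 4) to 310 genes (without Ercc1 delta/+ replicate 2). Of the other pathway genes 0 passed as reported, 1 with upper-quartile scaling, 1 with the stricter filter, 11 with DESeq2, 2 with the exact test, and 0 to 4 with 1 library left out, the 4 without Ercc1 delta/+ replicate 2. The causes were not tested.

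The labels name no pairing of samples. Deviations of same-numbered samples from their group means had correlations of -0.27, 0.17, -0.12 and 0.26. These were not set against differently numbered samples, so they cannot decide whether the numbers pair the samples. With the replicate block 0 genes passed.

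Estimates near 0 changed sign. With upper-quartile scaling the log2 fold change was -0.0119 for Wipi2 and -0.0158 for Neu1. With the length and GC offset it was -0.0848 for Wipi2, 0.0355 for Atg3, 0.0011 for Gabarapl1, -0.0302 for Tfeb, -0.0357 for Neu1, 0.0637 for Lamp2 and -0.0017 for Abca2. With library total as a covariate it was -0.0322 for Becn1, -0.0187 for Wipi2, -0.0222 for Ctsd, -0.0410 for Hexa, 0.143 for Gaa and -0.0415 for Neu1, and with every transcript row it was -0.0006 for Neu1. With 1 library left out it ran from -0.0118 to 0.0856 for Becn1, -0.0048 to 0.0296 for Wipi2, -0.0643 to 0.0009 for Atg4b, -0.175 to 0.0008 for Map1lc3b, -0.0275 to 0.0024 for Sqstm1, -0.0944 to 0.0293 for Ctsb, -0.0136 to 0.103 for Hexa, -0.0822 to 0.110 for Gaa, -0.0723 to 0.0226 for Glb1 and -0.0473 to 0.0372 for Neu1.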

Other observations

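New hydrolases reach the lysosome on sorting receptors, and 9 genes of that step were measured. At an unadjusted p under 0.05, 3 were higher and 1 lower, 44.4% of the 9 against 18.7% of all genes tested, and 0 passed the adjusted edgeR test. The groups overlapped in all 9, where 12.1% of all genes tested had groups that did not. With the length and GC offset the smallest unadjusted p of the 9 was 0.0740 (M6pr, edgeR). Under that offset 11.1% of all genes tested had an unadjusted p under 0.05. The genes named here were chosen after their values were seen. The 2 receptors for mannose 6-phosphate had estimates of opposite sign, and that difference was not tested. Igf2r held 57.5, 59.998, 60.6 and 54.6 CPM in Ercc1 delta/+ and 45.8, 47.0, 50.5 and 58.2 CPM in wild type, so that wild type replicate 4 lay among the mutants. M6pr held 90.9, 105.3, 96.2 and 98.1 CPM in Ercc1 delta/+ and 109, 106, 105 and 114 CPM in wild type, with mutant replicate 2 inside the wild type range. The log2 fold changes were 0.21 (SE 0.08) for Igf2r and -0.15 (SE 0.06) for M6pr, and with the length and GC offset they were 0.04 and -0.12. Sort1, a receptor that carries progranulin and other proteins to the lysosome, had a log2 fold change of 0.37 (SE 0.16), and Gga3, an adaptor for both mannose 6-phosphate receptors, had 0.16 (SE 0.07). With the length and GC offset these were 0.23 and 0.08. On the chromosomes, 6 of the 31 members lie on chromosome 11, 19.4% against 7.92% of all genes.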
